A study of Homo sapiens with 24 samples.

Results

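The genes described here are 10 members of the feedback circuits of bone morphogenetic protein (BMP) and transforming growth factor beta (TGF-beta) signalling, measured as newly made RNA in a human osteosarcoma line. They are *BMP4*, *BAMBI*, *SMAD6*, *SMAD7*, *SMURF1*, *SKIL*, *ID1*, *ID2*, *ID3* and *ID4*. They were taken by name from the deposited table of stranded exon counts, in which all 10 were found among 61533 genes, and all 10 passed the filter on low counts that left 23651 genes for testing. The study asked how loss of RNA binding by the glucocorticoid receptor (GR, encoded by *NR3C1*) changes the transcriptional response to dexamethasone, a synthetic glucocorticoid.

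BMP and TGF-beta ligands bind pairs of serine/threonine kinase receptors, which phosphorylate receptor SMAD proteins. These join SMAD4 and enter the nucleus to regulate transcription. The pathway limits itself, because its target genes include inhibitory SMADs, a pseudoreceptor, a ubiquitin ligase and nuclear corepressors that act against receptors or SMADs. The ID genes are classical BMP target genes, and their proteins bind basic helix-loop-helix factors and keep them from DNA. In bone-forming cells BMP signals favour osteoblast differentiation.

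The study used 3 lines of U2OS cells with a stable GR construct that ended in HaloTag, a tag that takes up fluorescent dye. The wt line carried wild-type GR, the SoF line carried K492A, a change that lowers RNA binding, and the Ctrl line carried R470A, a change that lowers DNA binding and controls for the lower DNA binding of SoF. Constructs were integrated by PiggyBac transposition under puromycin selection and cells were sorted by HaloTag dye. Each line was thus a single selected pool that kept its endogenous *NR3C1*, and construct and pool cannot be told apart. All cells grew in medium with charcoal-stripped serum and received 200 µM 4-thiouridine (4sU) for the last hour. Dexamethasone was given at 100 nM for 1, 2 or 3 h, and 0 h means 0.01% ethanol. Medium was replaced when either was added. The groups at 1, 2 and 3 h shared the 0 h ethanol group of their line, and the paper does not state how long ethanol was given. Hours of dexamethasone and time since that change of medium cannot be told apart. Each of the 12 groups had 2 libraries, 24 in all. Nothing in the labels states that the libraries of a group came from separate cultures, so p-values measure the spread between these libraries, which may be technical. Biotinylation and pulldown were done on the libraries of a group as a pair, so pulldown and group cannot be told apart. In bulk samples, a smaller share of expressing cells and less RNA per cell cannot be told apart either.

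Libraries held 8106036 to 15820806 counts. Levels are CPM, library counts scaled to a common total, after normalisation for library size and composition. *NR3C1* averaged 771 CPM in wt, 2855 in SoF and 3503 in Ctrl (n = 8 libraries each). These are levels of labelled RNA, while the study picked sorted fractions so that nuclear GR protein matched between lines by immunofluorescence. With lines averaged, *NR3C1* also changed over time, by 1.07 at 1 h and -1.06 at 3 h against 0 h on the log2 scale. Of 6 glucocorticoid target genes chosen as a check with earlier results of these data known, 5 rose at 1 h. At 3 h against 0 h 5 were higher and 1 was lower. The test was the quasi-likelihood test of edgeR, with p-values adjusted over all tested genes by the Benjamini-Hochberg method, as throughout. The osteoblast markers *COL1A1*, *SPARC* and *RUNX2* averaged 561, 267 and 102 CPM, while *SP7*, *IBSP* and *COL1A2* were at or near 0 (0.0479, 0.00738 and 0.257 CPM), so the labelled osteosarcoma identity was met by some of its defining markers only. Summed markers reached at most 2.38 CPM for blood and 7.22 CPM for endothelial cells. The summed epithelial markers ranged from 7.53 to 22.5 CPM in wt, 8.80 to 22.5 in SoF and 11.6 to 30.7 in Ctrl.

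RefSeq promoter windows (GRCh38.p14) were found for all 10 members, and 4 stretches that hold matches to a SMAD, GR or TATA sequence are shown here. Each lies in the 250 bases before the RefSeq start, limited to bases outside annotated GENCODE exons, 5′ to 3′ on the gene's strand. Capitals in *SMAD6* mark GTCTAGAC, the palindrome bound by SMAD3 and SMAD4, and TGTTCT, the reverse complement of AGAACA, the core sequence of GR elements. Capitals in *BAMBI* mark GGCGCC, a GC-rich SMAD-binding element, and capitals in *ID1* and *ID4* mark TATAAA. In *ID1* the capitals join 2 overlapping matches, TATAAA and its reverse complement TTTATA. The windows are *SMAD6* at chr15:66701986-66702235 (+), *BAMBI* at chr10:28677271-28677509 (+), *ID1* at chr20:31605127-31605282 (+) and *ID4* at chr6:19837120-19837369 (+).
SMAD6: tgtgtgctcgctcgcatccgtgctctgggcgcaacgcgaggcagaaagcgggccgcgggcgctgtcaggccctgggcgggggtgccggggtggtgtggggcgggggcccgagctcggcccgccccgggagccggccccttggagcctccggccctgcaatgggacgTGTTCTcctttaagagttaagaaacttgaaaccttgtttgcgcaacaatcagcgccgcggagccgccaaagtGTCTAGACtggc
BAMBI: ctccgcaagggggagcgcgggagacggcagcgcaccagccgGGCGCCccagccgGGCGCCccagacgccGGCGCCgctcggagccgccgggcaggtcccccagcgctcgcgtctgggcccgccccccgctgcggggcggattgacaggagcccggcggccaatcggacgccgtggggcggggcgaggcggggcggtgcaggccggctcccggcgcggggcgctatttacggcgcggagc
ID1: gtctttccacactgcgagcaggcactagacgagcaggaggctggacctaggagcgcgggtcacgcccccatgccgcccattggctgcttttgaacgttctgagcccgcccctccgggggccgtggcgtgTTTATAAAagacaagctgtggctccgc
ID4: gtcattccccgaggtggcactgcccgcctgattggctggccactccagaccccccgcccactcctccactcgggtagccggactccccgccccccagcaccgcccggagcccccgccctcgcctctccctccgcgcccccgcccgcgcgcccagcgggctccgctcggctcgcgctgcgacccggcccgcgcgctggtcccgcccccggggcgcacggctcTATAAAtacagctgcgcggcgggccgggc

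The letters were searched on both strands of the full 250-base windows. GTCTAGAC was found in 0.182% of 35116 windows of all genes, and *SMAD6* was the only member with it, 12 bases before its start. GGCGCC was found in 16.4% of all windows and stood 3 times in *BAMBI* and once each in *SKIL* and a *BMP4* window. AGAACA was found in 12.4% of all windows and lay in *SMAD6* and *ID1*, 84 and 180 bases before the start, the match in *ID1* lying outside the stretch shown. TATAAA was found in 10.7% of all windows and lay in *ID1*, *ID4* and a *SMAD7* window. A match of letters is a description and does not show that a factor bound there.

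The members differed widely in level. Per kilobase of exon, *ID1* averaged 515 CPM over the 24 libraries, *ID3* 141, *BMP4* 69.4, *SKIL* 30.6, *SMAD7* 27.9, *SMURF1* 23.9, *ID2* 19.2, *BAMBI* 13.8, *ID4* 7.84 and *SMAD6* 5.38. The lowest count of any member in a library was 123, for *ID4*, and the highest was 17787, for *ID1*. When the 12 groups of a gene were placed in order of level, neighbouring groups overlapped in all 11 steps for *ID2*, *ID3*, *ID4*, *SMAD6* and *SMAD7*, in 10 for *ID1*, in 9 for *BAMBI*, *SKIL* and *BMP4*, and in 7 for *SMURF1*.

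**Figure D1:**
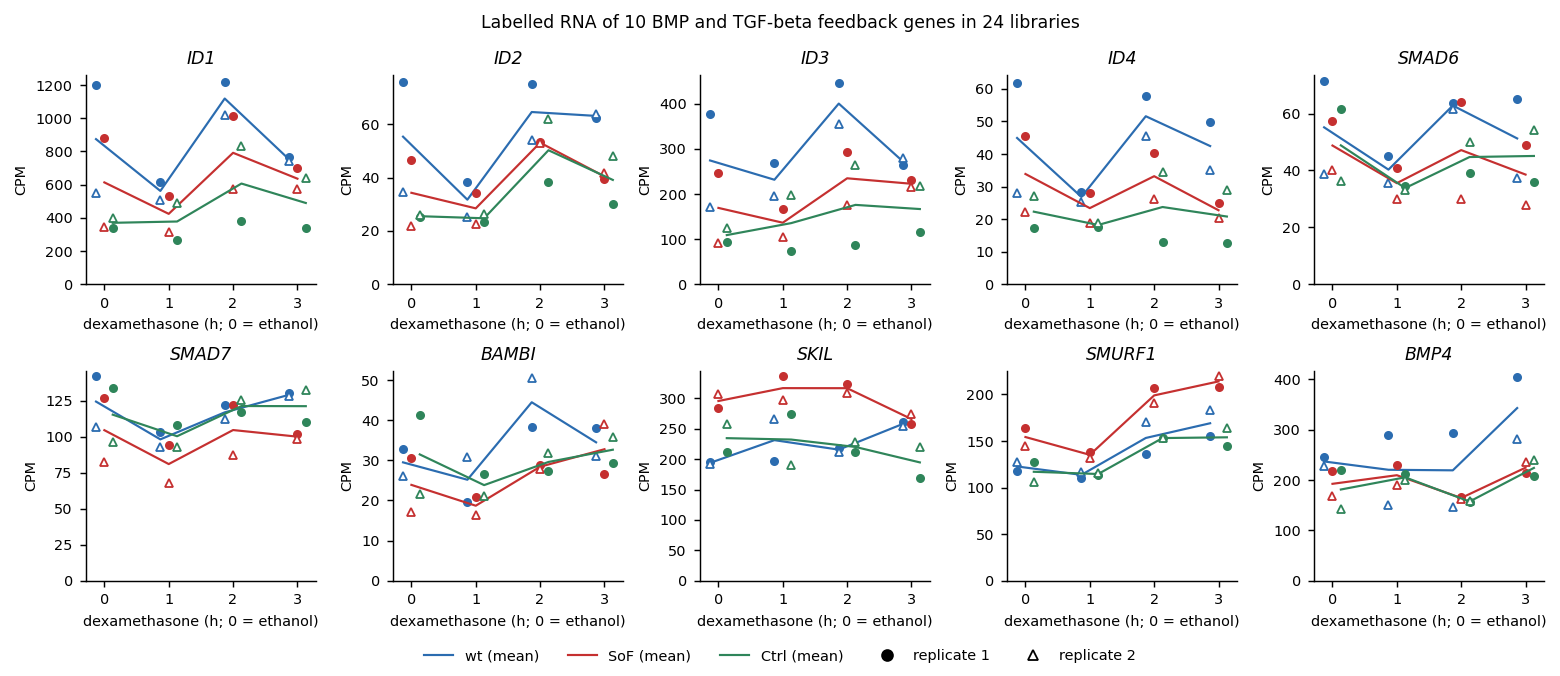
CPM (linear axis from 0) against hours of dexamethasone for the 10 genes; filled circles are replicate 1, open triangles replicate 2 and lines join group means of wt, SoF and Ctrl. *ID1* reached 1119 CPM on average in wt at 2 h, *SMURF1* was higher at 2 and 3 h than at 0 h in every line, and *SKIL* was highest in SoF.

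The first question was how the members changed over the hours of dexamethasone when the 3 lines were averaged. In the first hour no member passed the test, against 1.28% of all genes tested. The median change of the members was -0.32 on the log2 scale, against 0.01 over all genes, and 8 of the 10 had a negative change. Unadjusted p was below 0.05 for *ID4*, *SMAD6* and *SMAD7*, with log2 changes of -0.52, -0.49 and -0.31. By that unadjusted rule 3332 of all 23651 genes passed. DESeq2 called 0 members.

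Between 1 h and 2 h, 6 of the 10 members rose and none fell. These were *ID1*, *ID2*, *ID4*, *SMAD7*, *BAMBI* and *SMURF1*. The background was high at this step, since 44.9% of all genes were called in either direction and 22.7% as higher. The median change of the members was 0.53 on the log2 scale and that of all genes was -0.04. Both libraries at 2 h exceeded both at 1 h in all 3 lines for *ID2*, *BAMBI* and *SMURF1*, 3 of 10 members, against 17.6% of all genes.

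Compared with 0 h, fewer members had changed. At 2 h *ID2* and *SMURF1* were higher, 2 of 10 members against 28.8% of all genes in either direction and 16.2% as higher. At 3 h only *SMURF1* was higher, 1 of 10 against 40.3% in either direction and 20.9% as higher. Between 2 h and 3 h *BMP4* alone rose, where 10% of all genes were called.

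**Figure D2:**
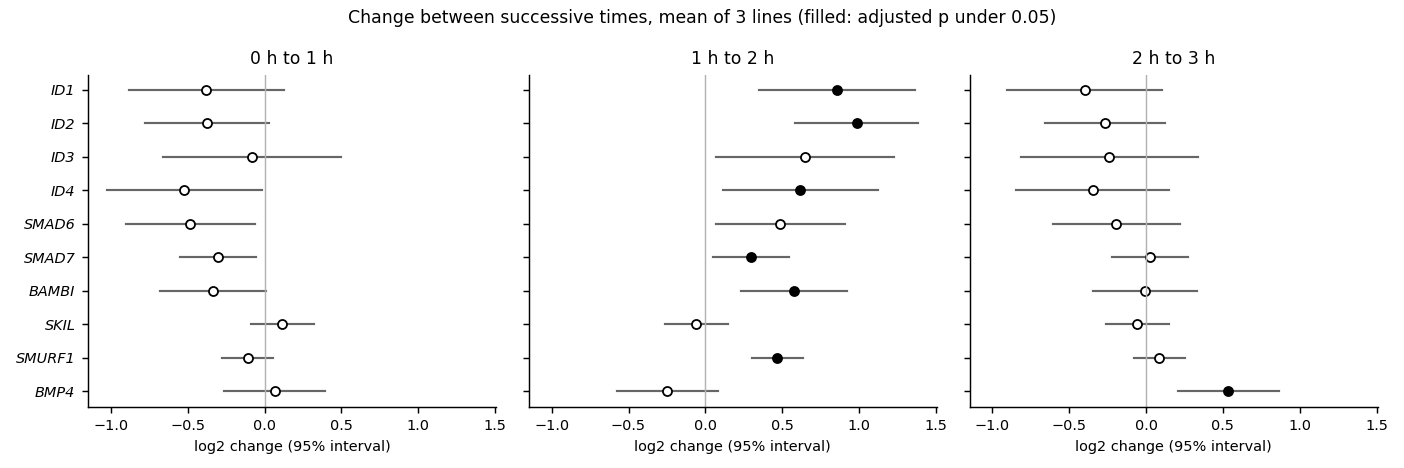
Change in log2 units between successive times, averaged over the 3 lines, with 95% intervals; filled points passed an adjusted p of 0.05. No gene is filled at 0 to 1 h, 6 are filled at 1 to 2 h, all above 0, and *BMP4* alone is filled at 2 to 3 h.

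*BMP4* is the ligand of the set, a secreted BMP that activates type I and type II BMP receptors. In wt the libraries at 0, 1, 2 and 3 h were at 246.5 and 227, 289.8 and 151, 292.5 and 146, and 404 and 282 CPM. In SoF they were at 217 and 168, 229.7 and 189.5, 166 and 162, and 214 and 235.5 CPM. In Ctrl they were at 219 and 143, 211 and 199.6, 157 and 157.5, and 208 and 240.3 CPM. In SoF and Ctrl both libraries at 3 h were above both at 2 h, while in wt the lower library at 3 h lay below the higher at 2 h. Averaged over lines, *BMP4* rose by 0.53 ± 0.16 (SE) on the log2 scale from 2 h to 3 h (adjusted p = 0.0323). The difference from 0 h to 3 h was 0.35 ± 0.16 (adjusted p = 0.0793). The call from 2 h to 3 h was lost without any of 8 single libraries, replicate 2 of wt at 2 h, SoF at 3 h and Ctrl at 3 h, replicate 1 of wt at 3 h, and each library of SoF and Ctrl at 2 h. Over all 17 settings the log2 change lay between 0.41 and 0.75. *BMP4* shares 506 exon bases with the antisense lncRNA ENSG00000287156, which averaged 1.44 CPM.

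*BAMBI* encodes a membrane pseudoreceptor that resembles type I receptors but lacks a kinase domain. The wt libraries at 0, 1, 2 and 3 h held 32.8 and 26.2, 19.6 and 30.7, 38.4 and 50.6, and 38.0 and 30.95 CPM. The SoF libraries held 30.5 and 17.2, 20.9 and 16.5, 28.9 and 27.9, and 26.5 and 39.03 CPM. The Ctrl libraries held 41.3 and 21.7, 26.5 and 21.1, 27.2 and 31.9, and 29.4 and 35.9 CPM. Libraries at 2 h were above those at 1 h in every line. At 0 h the libraries of SoF and of Ctrl lay far enough apart to overlap both of those levels. The rise from 1 h to 2 h was 0.58 ± 0.17 on the log2 scale (adjusted p = 0.00723), and it was kept in all 17 alternative settings. From 0 h to 2 h the change was 0.24 ± 0.16 (adjusted p = 0.277).

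*SMAD7* and *SMAD6* encode the inhibitory SMADs, which compete with receptor SMADs and recruit ubiquitin ligases to the receptors. *SMAD7* ranged from 107 to 142 CPM in wt at 0 h, from 93.0 to 104 at 1 h, from 112 to 122 at 2 h and from 128 to 130.3 at 3 h. In SoF the ranges were 82.5 to 127, 68.0 to 94.3, 87.4 to 122 and 98.3 to 102 CPM. In Ctrl they were 96.8 to 134, 92.8 to 108, 117 to 126 and 110.2 to 133 CPM. In wt and Ctrl both libraries at 2 h were above both at 1 h. *SMAD7* rose by 0.30 ± 0.12 on the log2 scale from 1 h to 2 h (adjusted p = 0.0465), a call that was lost in 9 of 17 settings, each of which left out a single library. Those libraries were replicates 1 and 2 of wt at 1 h, wt at 2 h and Ctrl at 2 h, replicate 2 of SoF and of Ctrl at 1 h and replicate 1 of SoF at 2 h.

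*SMAD6* lay between 28.0 and 71.5 CPM over all libraries. Its libraries at 1 h were at 45.0 and 35.6 CPM in wt, 41.0 and 30.0 in SoF and 34.6 and 33.1 in Ctrl. At 2 h they were at 63.9 and 61.8 in wt, 64.2 and 30.1 in SoF and 39.3 and 50.2 in Ctrl. Both libraries were higher at 2 h than at 1 h in wt and Ctrl. The log2 change was 0.49 ± 0.20 and missed the threshold (adjusted p = 0.0547).

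*SMURF1* encodes a HECT-type ubiquitin ligase that targets BMP receptor SMADs and, with inhibitory SMADs, the receptors. In wt its libraries at 0, 1, 2 and 3 h were at 118 and 127, 110.3 and 117, 137 and 170.1, and 155 and 183 CPM. In SoF they were at 164 and 144, 138.5 and 132, 207 and 191, and 208.5 and 219.6 CPM. In Ctrl they were at 128 and 106, 114 and 115.5, 153.0 and 153, and 144 and 164 CPM. Both libraries at 2 h and both at 3 h were above both at 0 h in all 3 lines, as they were for 11.6% and 15.4% of all genes. The log2 change against 0 h was 0.36 ± 0.08 at 2 h (adjusted p = 0.00187) and 0.44 ± 0.08 at 3 h (adjusted p = 0.000139). From 1 h to 2 h the gene rose by 0.47 ± 0.08 (adjusted p = 8.15e-05). These 3 calls held in all 17 alternatives each.

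Line by line, *SMURF1* was also the only member with a called change against 0 h. At 3 h it was higher by 0.46 ± 0.14 on the log2 scale in wt (adjusted p = 0.0340, where 10.7% of all genes were called) and by 0.47 ± 0.14 in SoF (adjusted p = 0.0197, 19.3% called). In Ctrl the log2 difference of 0.39 ± 0.14 missed the threshold (adjusted p = 0.0614, 14.2% called), and DESeq2 called it. The wt call was lost without either library at 0 h, without replicate 2 at 3 h and with no low-count filter, and the SoF call without replicate 2 at 0 h or either library at 3 h. At 1 h no member passed in wt, SoF or Ctrl, where 0.156%, 0.165% and 0.0465% of all genes were called, and at 2 h none passed either, where 4.6%, 5.68% and 7.95% were called. The counts of members at an unadjusted p below 0.05 were 1, 0 and 0 at 1 h and 2, 1 and 2 at 2 h in wt, SoF and Ctrl. Of all 23651 genes, 2602, 1645 and 423 were below it at 1 h and 4397, 4715 and 5412 at 2 h. DESeq2 called 0 members in each of these 6 comparisons. *SMURF1* shares 735 exon bases with *TRRAP* on the opposite strand, and *TRRAP* differed by -0.07 at 2 h and -0.03 at 3 h against 0 h on the log2 scale (adjusted p = 0.446 and 0.764).

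*ID1*, the most abundant member, is a classical immediate target of BMP receptor SMADs. In wt its libraries were at 1199 and 550.0 CPM at 0 h, 619 and 506 at 1 h, 1216 and 1022 at 2 h, and 764 and 741 at 3 h. In SoF they were at 881 and 347, 534 and 315, 1011 and 573, and 699.9 and 573 CPM. In Ctrl they were at 339 and 402, 266 and 491, 383.5 and 830.4, and 341 and 639 CPM. The libraries of a group often lay far apart, most at 0 h in wt and SoF, where the first replicate was over the second by 1.12 and 1.35 on the log2 scale. From 1 h to 2 h *ID1* rose by 0.86 ± 0.24 (adjusted p = 0.00701), a call kept in all 17 settings. From 0 h to 2 h the change was 0.48 ± 0.24 and missed the threshold (adjusted p = 0.146).

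*ID2* had the steepest step from 1 h to 2 h of the 10 genes. At 1 h its libraries were at 38.4 and 25.1 CPM in wt, 34.4 and 22.6 in SoF and 23.2 and 26.3 in Ctrl. At 2 h they were at 75.0 and 54.2 in wt, 53.4 and 52.8 in SoF and 38.5 and 62.0 in Ctrl. Every library at 2 h was above both libraries of its line at 1 h. The step was 0.98 ± 0.19 on the log2 scale (adjusted p = 0.000334). At 0 h the libraries were at 76.0 and 34.8 CPM in wt, 46.6 and 22.1 in SoF and 25.1 and 26.0 in Ctrl, so the wt group overlapped its own 2 h values. Against 0 h, *ID2* was higher at 2 h by 0.61 ± 0.19 (adjusted p = 0.0198). That call was lost without replicate 2 of wt at 0 h, replicate 1 of wt at 2 h, replicate 2 of SoF at 0 h or replicate 2 of Ctrl at 2 h, with log2 changes of 0.45 to 0.83 over all 17 settings. *ID2* shares 145 exon bases with the antisense *ID2-AS1*, which averaged 2.49 CPM.

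*ID4* and *ID3* moved in the same direction at that step. *ID4* was at 28.3 and 25.3 CPM in wt, 28.1 and 18.7 in SoF and 17.5 and 18.9 in Ctrl at 1 h, and at 57.7 and 45.5, 40.4 and 26.1, and 12.99 and 34.5 CPM at 2 h. Only in wt were both libraries higher at 2 h than both at 1 h. *ID4* rose by 0.62 ± 0.24 on the log2 scale (adjusted p = 0.0431), a call lost in 9 of 17 settings. They were DESeq2 and the removal of replicate 1 or 2 of wt or of Ctrl at 1 h, replicate 1 of wt or SoF at 2 h, replicate 2 of SoF at 1 h or replicate 2 of Ctrl at 2 h. Without the last of these the log2 change was 0.33.

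*ID3* was at 268 and 196 CPM in wt, 168 and 105 in SoF and 72.9 and 198 in Ctrl at 1 h. At 2 h it was at 446 and 355, 294 and 176, and 87.2 and 265 CPM. In wt and SoF both libraries at 2 h were above both at 1 h. The log2 change of 0.65 ± 0.28 missed the threshold (adjusted p = 0.0619).

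*SKIL* encodes SnoN, a corepressor that binds SMADs at their target genes and is itself a TGF-beta target gene. It did not pass the test at any step when lines were averaged, with log2 changes of 0.11 ± 0.10, -0.06 ± 0.10 and -0.06 ± 0.10 for the successive steps. The change from 0 h to 3 h was -0.00 with a 95% interval of -0.21 to 0.20.

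The second question was whether the GR constructs differed in the response. No member passed the test of a difference in response between any pair of lines at 1, 2 or 3 h (edgeR, 9 comparisons; DESeq2 called 0 in each). The share of all genes called in those 9 comparisons ranged from 0% to 0.0127%. Only *SKIL* reached an unadjusted p below 0.05, for SoF minus wt and Ctrl minus wt at 3 h, where 558 and 845 of all 23651 genes did. At 3 h the log2 response in SoF minus that in wt was -0.57 (95% interval -1.07 to -0.07, adjusted p = 1.00), and in Ctrl minus wt it was -0.68 (-1.18 to -0.18, adjusted p = 0.982). *SKIL* libraries in wt were at 195 and 192 CPM at 0 h and 262 and 254.5 at 3 h. In SoF they were at 285 and 307, then 257.5 and 274.5, and in Ctrl at 211 and 258, then 169 and 221.
The intervals were wide for the ID genes. For *ID1* at 3 h the interval of the difference in response between SoF and Ctrl ran from -1.59 to 0.88, and for *SMURF1*, the most tightly measured member there, from -0.33 to 0.48. No difference inside those bounds is excluded by these data.

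The third question was whether the lines differed regardless of time. The ID genes were lowest in Ctrl. Over its 8 libraries each line held, as lowest, median and highest, 506, 753 and 1216 CPM of *ID1* in wt, 315, 573 and 1011 in SoF and 266, 393 and 830.4 in Ctrl. *ID3* held 172, 273 and 446 CPM in wt, 92.5, 196 and 294 in SoF and 72.9, 121 and 265 in Ctrl. *ID4* held 25.3, 40.4 and 62.0 CPM in wt, 18.7, 25.5 and 45.4 in SoF and 12.6, 18.2 and 34.5 in Ctrl. The ranges of the lines overlapped for each of these genes, while at each of the 4 times both Ctrl libraries of *ID1* and *ID4* were below both wt libraries, as were those of *ID3* at 3 of the 4 times and of *ID2* at 2. Both Ctrl libraries were below both wt libraries at all 4 times for 2 of 10 members and for 2.78% of all genes.

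With time left out of the model, *ID3* and *ID4* were lower in Ctrl than in wt, with log2 differences of -0.999 ± 0.26 and -0.96 ± 0.23 (adjusted p = 0.0283 and 0.0158), 2 of 10 members against 4.77% of all genes. *ID1* missed the threshold at -0.84 ± 0.25 (adjusted p = 0.0502) and passed it in DESeq2. The *ID3* call was lost in 8 of 22 settings, with the 0 h libraries alone and without replicate 1 of wt at 0 or 2 h, replicate 1 of Ctrl at 0, 1, 2 or 3 h or replicate 2 of Ctrl at 0 h. The *ID4* call was lost only with the 0 h libraries alone. There the log2 differences of *ID3* and *ID4* were -1.33 ± 0.49 and -1.03 ± 0.42 (adjusted p = 0.2238 and 0.2645).

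When the line difference was averaged over the 4 times in the model of 12 groups, a comparison added after the data were seen, all 4 ID genes were lower in Ctrl than in wt, against 13.2% of all genes called in either direction and 7.26% as lower. The log2 differences were -0.83 ± 0.21 for *ID1*, -0.63 ± 0.17 for *ID2*, -0.998 ± 0.24 for *ID3* and -0.93 ± 0.21 for *ID4* (adjusted p = 0.0124, 0.0148, 0.00899 and 0.00537). The *ID2* call was lost without replicate 1 of wt at 0 h or at 1 h, and the other 3 calls were kept in all 21 settings. The log2 differences lay between -0.99 and -0.67 for *ID1*, -0.74 and -0.47 for *ID2*, -1.25 and -0.84 for *ID3* and -1.15 and -0.76 for *ID4* over those settings. The other 6 members did not pass, with log2 differences from -0.40 for *BMP4* to -0.02 for *SKIL*. *NR3C1* was higher in Ctrl than in wt by 2.18 and in SoF than in wt by 1.82 on the log2 scale in that model, and its part in these differences was not tested.

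In SoF the ID genes lay between the other lines at every time by their means, without passing the main test against either. Against wt the log2 differences averaged over times were -0.41 ± 0.21 for *ID1*, -0.44 ± 0.16 for *ID2*, -0.63 ± 0.24 for *ID3* and -0.53 ± 0.21 for *ID4* (adjusted p = 0.159, 0.0578, 0.0638 and 0.0665). The number of members called in this comparison was 2, *SKIL* and *SMURF1*, and it turned on single libraries. It rose most without replicate 1 of SoF at 0 h and next without replicate 2 of wt at 0 h. The number of all genes called in those fits is not given here. With a replicate block within each line, added after seeing the data, 8 members were called against wt, where 6234 of 23651 genes were. The log2 differences were then -0.45, -0.43, -0.66 and -0.54 for *ID1* to *ID4* (adjusted p = 0.00790, 0.0136, 0.00170 and 0.00273). In the same fit *ID1*, *ID3* and *ID4* were higher in SoF than in Ctrl by 0.41, 0.42 and 0.42 (adjusted p = 0.0245, 0.0456 and 0.0319), and *ID2* was not called at 0.19 (adjusted p = 0.368). That block fits a replicate difference within each line, the kind of order described below for *ID1* and *ID4*. It takes up that part of their spread, so its smaller adjusted p-values are no independent support for the line differences. Replicate 1 of SoF at 0 h held 881 CPM of *ID1* against 347 in its partner. In the main fit 22.1% of all genes were called for SoF against wt and 8.96% for SoF against Ctrl. With the block within each line, the number of all genes called for SoF against Ctrl is not given here.

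**Figure D3:**
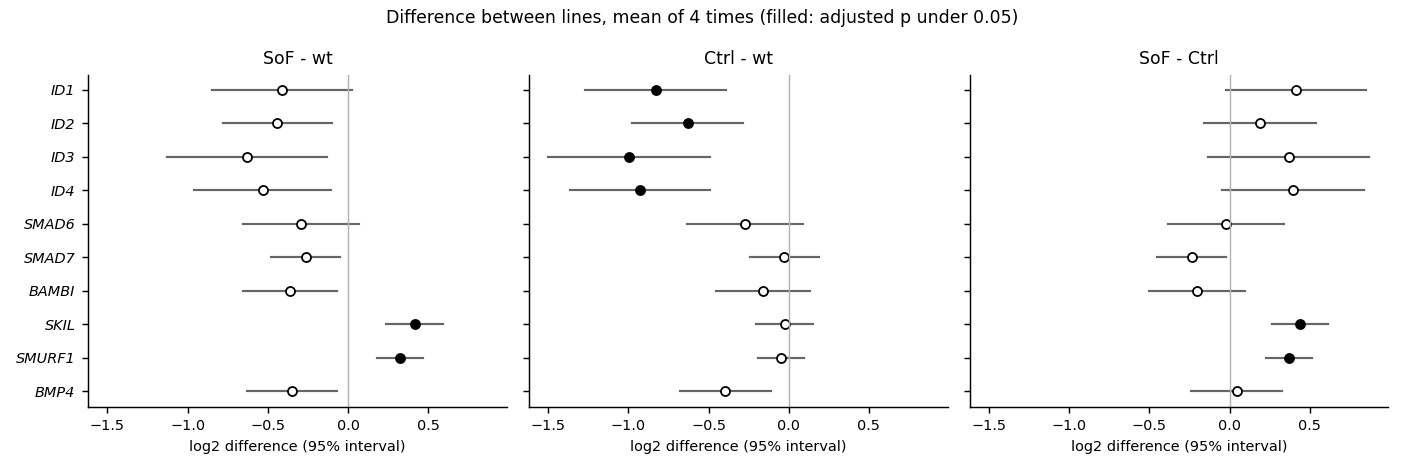
Differences between lines in log2 units, averaged over the 4 times, with 95% intervals; filled points passed an adjusted p of 0.05. *ID1* to *ID4* are filled below 0 for Ctrl against wt, and *SKIL* and *SMURF1* are filled above 0 for SoF against wt and SoF against Ctrl.

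*SKIL* and *SMURF1* were higher in SoF. *SKIL* held 192, 216 and 266 CPM in wt (lowest, median and highest of 8), 257.5, 302 and 337 in SoF and 169, 216 and 274 in Ctrl. Its SoF libraries exceeded both Ctrl libraries at all 4 times and both wt libraries at 0, 1 and 2 h. Both SoF libraries were above both Ctrl libraries at all 4 times for *SKIL* and *SMURF1*, 2 of 10 members, and for 2.57% of all genes. With time left out, *SKIL* was higher in SoF by 0.42 ± 0.10 than in wt and by 0.44 ± 0.10 than in Ctrl (adjusted p = 0.00951 and 0.00655), where 8.02% and 3.61% of all genes were called. Each call was lost only with the 0 h libraries alone. There the log2 differences of *SKIL* were 0.61 ± 0.17 against wt and 0.34 ± 0.17 against Ctrl (adjusted p = 0.110 and 0.731).

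*SMURF1* held 110.3, 132 and 183 CPM in wt, 132, 178 and 219.6 in SoF and 106, 136 and 164 in Ctrl. Both SoF libraries were above both libraries of wt and of Ctrl at every time. For SoF over wt that held for 1 of 10 members and 4.26% of all genes. Averaged over the 4 times, *SMURF1* was higher in SoF by 0.32 ± 0.07 than in wt and by 0.37 ± 0.07 than in Ctrl (adjusted p = 0.00283 and 0.00118), calls kept in all 21 settings each. With time left out the log2 differences of 0.34 and 0.39 missed the threshold (adjusted p = 0.0952 and 0.0977).

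Genes beside *SKIL* and *SMURF1* on the chromosome were also higher in SoF. *SKIL* lies at chr3:170357342-170396835 (+) and *SMURF1* at chr7:99027440-99144108 (-). Of the 20 nearest tested genes around *SKIL*, 18 had a higher mean in SoF than in wt and 19 a higher mean in SoF than in Ctrl, with median log2 differences of 0.57 and 0.68. The values of *SKIL* itself by the same measure were 0.42 and 0.45, below those medians. Around *SMURF1* all 20 neighbours were higher in SoF than in wt and in SoF than in Ctrl, with medians of 0.20 and 0.35 beside 0.33 and 0.37 for *SMURF1*. Over all tested genes the medians were -0.01 and 0.00, and 48.7% and 50.2% were above 0. *TRRAP*, the overlapping gene on the other strand, was higher in SoF than in wt by 0.28 ± 0.06 in the average over times (adjusted p = 0.00227). The paper reports that genes higher in SoF regardless of dexamethasone cluster on chr3 and chr7, among others. It proposes a change in chromatin accessibility or architecture. Whether *SKIL* and *SMURF1* lie in the regions it names was not tested. The neighbours are no independent sample, and neither copy number nor chromatin of these regions was tested.

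For Ctrl against wt the ID genes stood below the medians of their neighbourhoods. The log2 difference was -0.86 for *ID1*, -0.61 for *ID2*, -1.08 for *ID3* and -0.97 for *ID4* by the same measure. The medians of their 20 neighbours were -0.14, -0.05, -0.00 and -0.08. For SoF against Ctrl, 18 of 20 neighbours of *ID1* and 17 of 20 of *ID4* were above 0, with medians of 0.23 and 0.21 beside 0.41 and 0.43 for the genes themselves. For SoF against wt, 14 and 15 of them were above 0, with medians of 0.10 and 0.14, while *ID1* and *ID4* were at -0.45 and -0.54. The 4 genes lie on different chromosomes, *ID1* at chr20:31605283-31606515 (+), *ID2* at chr2:8678845-8684461 (+), *ID3* at chr1:23557926-23559501 (-) and *ID4* at chr6:19837370-19842197 (+).

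**Figure D4:**
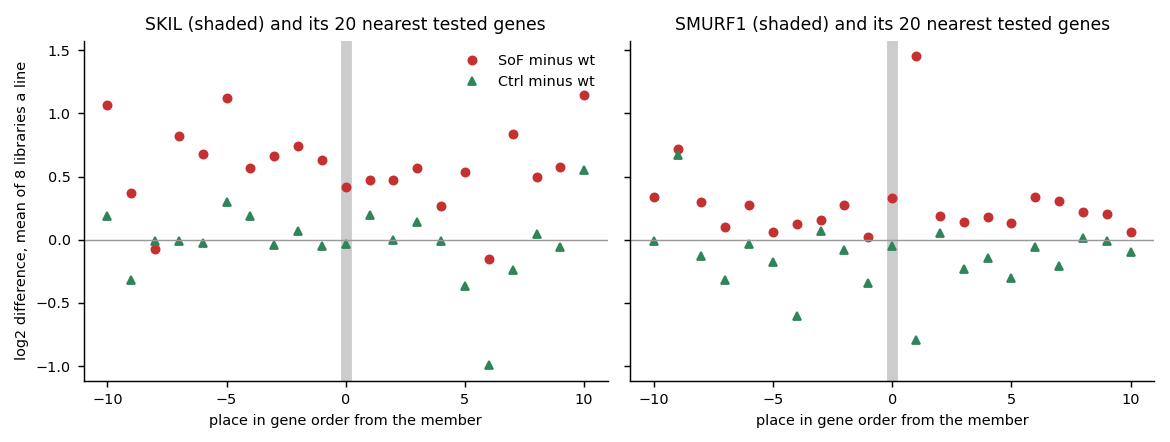
Log2 difference in mean level (8 libraries a line) for *SKIL*, *SMURF1* and the 10 tested genes on each side, by place in gene order. SoF minus wt is above 0 for 18 of 20 neighbours of *SKIL* and 20 of 20 of *SMURF1*, while Ctrl minus wt is above 0 for 8 and 4 of them.

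The libraries of a group differed for several members in a pattern over the series. Replicate 1 of *ID1* was above replicate 2 at all 4 times in wt, by 0.04 to 1.12 on the log2 scale, and at all 4 times in SoF, by 0.29 to 1.35. In Ctrl it was below replicate 2 at all 4 times, with differences from -1.11 to -0.25. *ID4* had the same order in all 12 groups, with 0.16 to 1.14 in wt, 0.29 to 1.02 in SoF and -1.40 to -0.11 in Ctrl. *ID2* and *ID3* also had replicate 1 below replicate 2 at all 4 times in Ctrl. *SMAD6* and *SMAD7* had replicate 1 above replicate 2 at all 4 times in wt and in SoF, and at 2 of the 4 in Ctrl. The order of *ID1* and *ID4* over all 12 groups was shared by 14 of the 23651 tested genes, 0.0592%, and was noticed after the values were seen. The labels name no batch or day for the replicate number, and its part in the line differences of the ID genes was not tested beyond the alternatives given with them.

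**Figure D5:**
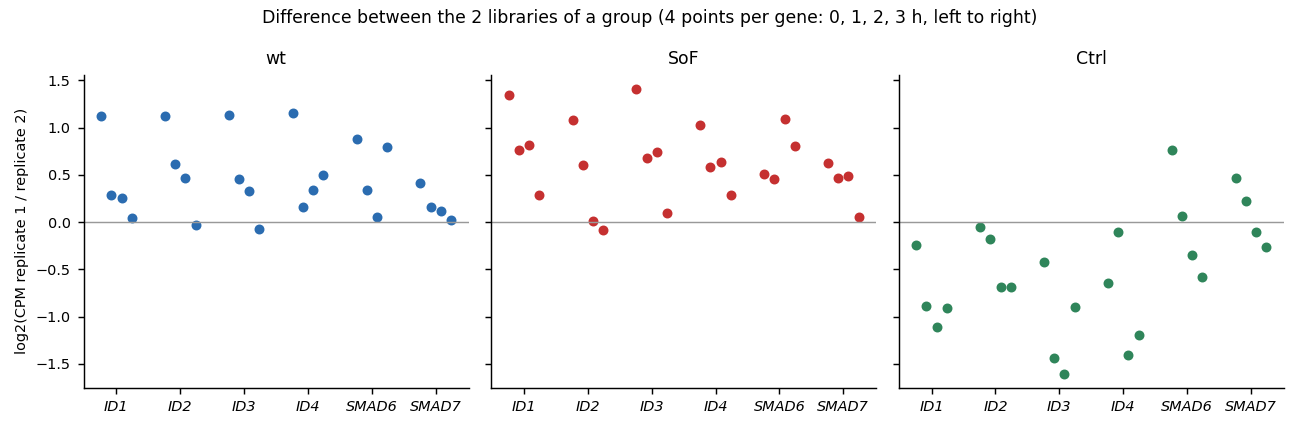
Log2 ratio of replicate 1 to replicate 2 for 6 genes in each line, with a point for each of the 4 times. For *ID1* and *ID4* all points lie above 0 in wt and SoF and below 0 in Ctrl. Those of *SMAD6* and *SMAD7* lie above 0 in wt and SoF and on both sides of 0 in Ctrl.

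Across the 12 group means, which share lines and times, *ID1* followed *ID3*, *ID2* and *ID4* with Pearson's r of 0.95, 0.906 and 0.877, and *SKIL* and *SMAD7* had r of -0.649. These are descriptions of 12 points. The 5 genes most like *ID1* among 19702 genes were *EIF3D* (0.978), *BRK1* (0.97), *TUSC2* (0.965), *RTCB* (0.961) and *RPL14* (0.96). Among those most like *SMAD7* were *GGN* (0.972), the lncRNA ENSG00000256894 (0.948), *LAPTM4A* (0.925) and *CGB8* (0.925), of which *GGN*, ENSG00000256894 and *CGB8* averaged under 3 CPM and *CGB8* belongs to a family of near-identical copies. Those most like *SKIL* were *DNAJC2* (0.945), *CHUK* (0.92), *LINC02474* (0.919), *SEC62* (0.913) and *ATXN7* (0.913).

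The rest of the pathway was read in the lines-averaged comparison of 3 h with 0 h, where 40.3% of all genes were called. Among 14 tested ligands 3 rose and 4 fell. *BMP5* and *TGFB2* fell by 0.81 and 0.68 on the log2 scale (adjusted p = 6.68e-05 and 0.000204), and *BMP6* rose by 0.68 (adjusted p = 0.00148). Among 14 ligand antagonists and latency genes 5 rose and 6 fell. *FST*, encoding the activin and BMP binder follistatin, fell by 1.70 (adjusted p = 1.84e-10), *FSTL3*, encoding a related binder, rose by 1.12 (adjusted p = 4.95e-07) and *LTBP2*, encoding a matrix protein related to latent TGF-beta binding proteins, rose by 0.98 (adjusted p = 1.22e-06).

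Among 14 receptors 3 rose and 3 fell. *TGFBR2*, the type II TGF-beta receptor, rose by 1.21 (adjusted p = 2.84e-09), the coreceptor gene *TGFBR3* fell by 1.07 (adjusted p = 4.05e-06) and *BMPR2*, the type II BMP receptor, rose by 0.54 (adjusted p = 2.15e-05). Of the 6 SMAD transducers *SMAD3* rose by 0.65 and *SMAD9* by 1.01 (adjusted p = 4.24e-06 and 4.88e-05) and none fell. Among 14 other negative regulators 7 rose and 2 fell, with a list median of 0.20 against -0.03 over all genes. The corepressor gene *TGIF1* rose by 1.71 (adjusted p = 2.48e-10), *PMEPA1*, encoding a SMAD-sequestering membrane protein, by 0.95 (adjusted p = 1.01e-05) and the corepressor gene *SKI* by 0.66 (adjusted p = 6.59e-05).

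Among 15 other SMAD target genes 5 rose and 7 fell, with a list median of -0.30. *CCN2*, encoding a matricellular protein, fell by 1.66 (adjusted p = 2.74e-08), while the matrix genes *FN1* and *COL1A1* rose by 1.15 and 0.79 (adjusted p = 7.75e-06 and 1.55e-05). Of the 3 bHLH partners of ID proteins, *TCF3* rose by 0.91 (adjusted p = 9.16e-08), and *TCF4* and *TCF12* fell by 0.80 and 0.21 (adjusted p = 3.13e-05 and 0.0447). The marker lists also held changes at 3 h, and *COL1A1* and *FN1* named above belong to the osteoblast and mesenchymal lists. Of 6 tested osteoblast markers 2 rose and 2 fell, and 3 of 5 mesenchymal markers rose. Falls were called for 2 of 3 tested epithelial markers and the 1 tested blood marker, and 1 of 2 tested endothelial markers rose. From 1 h to 2 h, where most calls of members were made, 44.9% of all genes were called in either direction and 22.7% as higher. At that step 3 of 5 mesenchymal markers rose (list median 0.85 on the log2 scale), and 2 of 6 osteoblast markers rose and 2 fell. Of the others, 1 of 3 epithelial markers fell, 1 of 2 endothelial markers rose and the blood marker did not pass. The part of such markers in the changes of the members was not tested.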

How the data were processed

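The authors deposited a table of raw counts per gene, made from 4sU-labelled RNA of 24 libraries. Per the labels and the study's methods, reads carrying molecular identifiers were handled with UMI-tools 1.1.2, trimmed with Trim Galore 0.6.6, aligned with STAR 2.7.3a to hg38, deduplicated, and counted over exons of GENCODE v39 with featureCounts. That counting was stranded is stated by the table's name alone. Duplicate removal by identifier limits amplification error but not losses in pulldown.

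Symbols and positions came from GENCODE v44, which matched 61369 of 61533 identifiers (99.7%). The authors used DESeq2. Here edgeR 4.0.16 (R 4.3.3, TMM scaling, quasi-likelihood test with Benjamini-Hochberg adjustment, calls at adjusted p under 0.05) was the main test, in a model of 12 groups. filterByExpr with a minimum count of 10 and total of 15 left 23651 genes there and 21122 in a model of 3 lines with time left out. Biological coefficients of variation were 14.2% and 24.0%. Library totals ran from 8106036 to 15820806. Within a group, libraries differed by more than counting noise (chi-square per degree of freedom 3.87 to 13), and most at 0 h in each line. Scripts were tested on simulated data. Log2 CPM used a prior count of 2, and positions in gene order used the 10 nearest tested genes on each side. Means over 8 libraries of log2 CPM were used for neighbours.

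The members and lists were chosen with earlier results of these data known. All members were described. Genes of other pathway lists were named if they were among the 3 called with the smallest p in the lines-averaged comparison of 3 h with 0 h, and likeness was Pearson's r over 12 group means among genes averaging at least 1 CPM. A gene among those most like *SMAD7* is not reported here. Alternatives were RLE size factors, no low-count filter, a replicate block, DESeq2 1.42.0, other treatments of time and each library left out.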

Additional observations from a re-analysis of the deposited data

How the results depend on the processing

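Over 24 called changes of single members and 444 alternative values of them, 394 kept the call and direction, 50 lost the call and 0 reversed. With no low-count filter the number of members called was 5, 4 and 4 at 1, 2 and 3 h against 0 h with lines averaged (0, 2 and 1 in the main fit) and 2 from 2 h to 3 h (1). It was 3 in wt at 1 h and 1 at 2 h, 1, 1 and 2 in SoF at 1, 2 and 3 h and 3 and 2 in Ctrl at 2 and 3 h (main 0, 0, 0, 0, 1, 0 and 0), and 10 for SoF against wt and 5 for SoF against Ctrl averaged over times (2 and 2). With lines averaged, 1035, 6722 and 9413 of all genes were called at 1, 2 and 3 h without the filter (303, 6812 and 9525 in the main fit). For the other comparisons without the filter, the number of all genes called is not given here. The cause of these shifts was not tested. DESeq2 called 1 member in Ctrl at 3 h (0). Averaged over the 4 times instead of with time left out, 2, 4 and 2 members were called for SoF against wt, Ctrl against wt and SoF against Ctrl (1, 2 and 1), and with the 0 h libraries alone 0, 0 and 0, where only 4 libraries entered each difference.

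Without single libraries the number of members called ranged from 0 to 0 at 1 h, 1 to 4 at 2 h and 1 to 3 at 3 h against 0 h with lines averaged, from 4 to 8 for 2 h against 1 h and from 0 to 1 for 3 h against 2 h. In wt it ranged from 0 to 0, 0 to 0 and 0 to 1 at 1, 2 and 3 h, in SoF from 0 to 0, 0 to 1 and 0 to 2, and in Ctrl from 0 to 0, 0 to 1 and 0 to 1. For lines with time left out it ranged from 1 to 1, 1 to 3 and 1 to 1 (SoF against wt, Ctrl against wt, SoF against Ctrl), averaged over times from 2 to 9, 3 to 5 and 2 to 3, and for the 9 differences in response from 0 to 0. Where a group kept a lone library, the spread came from the other groups. The number of all genes called moved with single libraries too, so these ranges do not describe the members alone.

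Replicate numbers are shared between groups by label only. The differences between replicates 1 and 2 correlated between groups with r from -0.221 to 0.568 (median 0.038), and 21 of 66 pairs of groups were above 0.1. Within lines r ran from -0.182 to 0.434 (median 0.0949), with 9 of 18 pairs above 0.1. The requirement that every pair be above 0.1 was not met in all groups or within lines, and the samples were treated as not paired. With the replicate block, 2 members were called at 3 h against 0 h with lines averaged, where 9968 of all genes were. For SoF against wt averaged over times 5 members were called. A replicate block within each line, added after seeing the data, gave 4 at 2 h and 3 at 3 h against 0 h with lines averaged, 1 in Ctrl at 2 h and 1 at 3 h, 8 for SoF against wt and 5 for SoF against Ctrl averaged over times. With lines averaged, that block called 7693 and 10130 of all genes at 2 and 3 h against 0 h (6812 and 9525 in the main fit). The number for SoF against wt with that block is given above. For the remaining comparisons with either block it is not given here.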
